A study of Homo sapiens with 16 samples.

Results

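The comparison described here set HSB-2 cells carrying USP7 shRNA-4058 against HSB-2 cells carrying a scrambled control. It was chosen by the titles of the samples and took in 4 of the 16 RNA-seq libraries of the series, 2 of each group. The 16 libraries formed 8 groups of 2. Both T-ALL cell lines of this series, Jurkat and HSB-2, were sequenced as wild-type cells, with the scrambled control, with shRNA-4058 and with shRNA-4057. All 8 groups shared the estimate of the spread. The 2 wild-type and the 2 shRNA-4057 libraries of HSB-2 served as further references.

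HSB-2 is an established line of T-lineage acute lymphoblastic leukemia (T-ALL), labelled TAL1+, which the study described as having an aberrantly active TAL1 and an intact USP7. Both hairpins were delivered by lentivirus and target different exons of USP7. The transduced cells were sorted for GFP or selected with puromycin, and which of the procedures applied to these libraries is not stated. The wild-type cells carried no vector, and the labels name the control a scrambled siRNA while the design text names it a scrambled shRNA. Nothing says whether the 2 libraries of a group came from separate transductions, so p-values measure the spread between these libraries, which may be technical.

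USP7 is a deubiquitinase, an enzyme that removes ubiquitin from other proteins and so protects them from degradation. Its best known substrates are MDM2 and p53, together with proteins of chromatin and DNA replication. E proteins (TCF3, which encodes E2A, TCF12, which encodes HEB, and TCF4) are transcription factors that switch on genes of early T-cell development, and TAL1 and the ID proteins pair with them and change or block their activity. The study asked whether partial loss of USP7 lowers the expression of E-protein targets in cells with active TAL1.

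The shRNA-4058 libraries held 231326746 and 76602847 counts, the scrambled libraries 186681891 and 177317064, and all 16 libraries between 76602847 and 235467749. Of the 57820 genes in the table, 23063 passed the filter on low counts and were tested. Levels are given as TMM CPM, counts relative to the library total after scaling of the libraries by the trimmed mean of M values, and a gene was called when its adjusted p was under 0.05 in edgeR's quasi-likelihood test. The control itself stood apart from wild-type HSB-2 cells: 7857 genes (34.1%) were called between scrambled and wild-type. Counts against wild-type are therefore given for each gene list, and wild-type levels for many of the genes named. The part that this difference played in the results was not tested.

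USP7 (chromosome 16, 8985954 to 9069185, minus strand, GRCh37) was at 162 and 156 CPM with shRNA-4058 and at 227 and 220 CPM with the scrambled control. Both shRNA-4058 libraries lay below both controls, at 71.0% of the scrambled mean, so transcript of the targeted gene remained. The log2 fold change was -0.49 (SE 0.0345, n = 2 and 2, adjusted p = 1.9e-11). Against the wild-type mean of 240 CPM it was -0.59. The cells with shRNA-4057 held 146 CPM, a log2 difference of 0.12 between the hairpins (SE 0.0348, adjusted p = 0.015 by edgeR), which was small and lost its call when either first replicate was left out. The same hairpin was used in Jurkat cells, where USP7 was at -0.67, and its effect differed between the lines for 12826 of all genes tested (55.6%).

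Against the scrambled control, 12177 of 23063 genes were called (52.8%), 6131 higher (26.6%) and 6046 lower (26.2%). Most differences were small. At least 2-fold differences were called for 3268 genes (14.2%), 1802 higher (7.81%) and 1466 lower (6.36%). Of the 1802 higher genes, 1444 (80.1%) had both shRNA-4058 libraries above the 2 scrambled and the 2 wild-type libraries, and of the 1466 lower genes, 1158 (79.0%) had both below all 4. Over all genes tested these positions were held by 26.3% and 26.8%. Against wild-type cells, 5302 genes were called higher (23.0%) and 4855 lower (21.1%), 852 at least 2-fold higher (3.69%) and 832 at least 2-fold lower (3.61%).

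**Figure D1:**
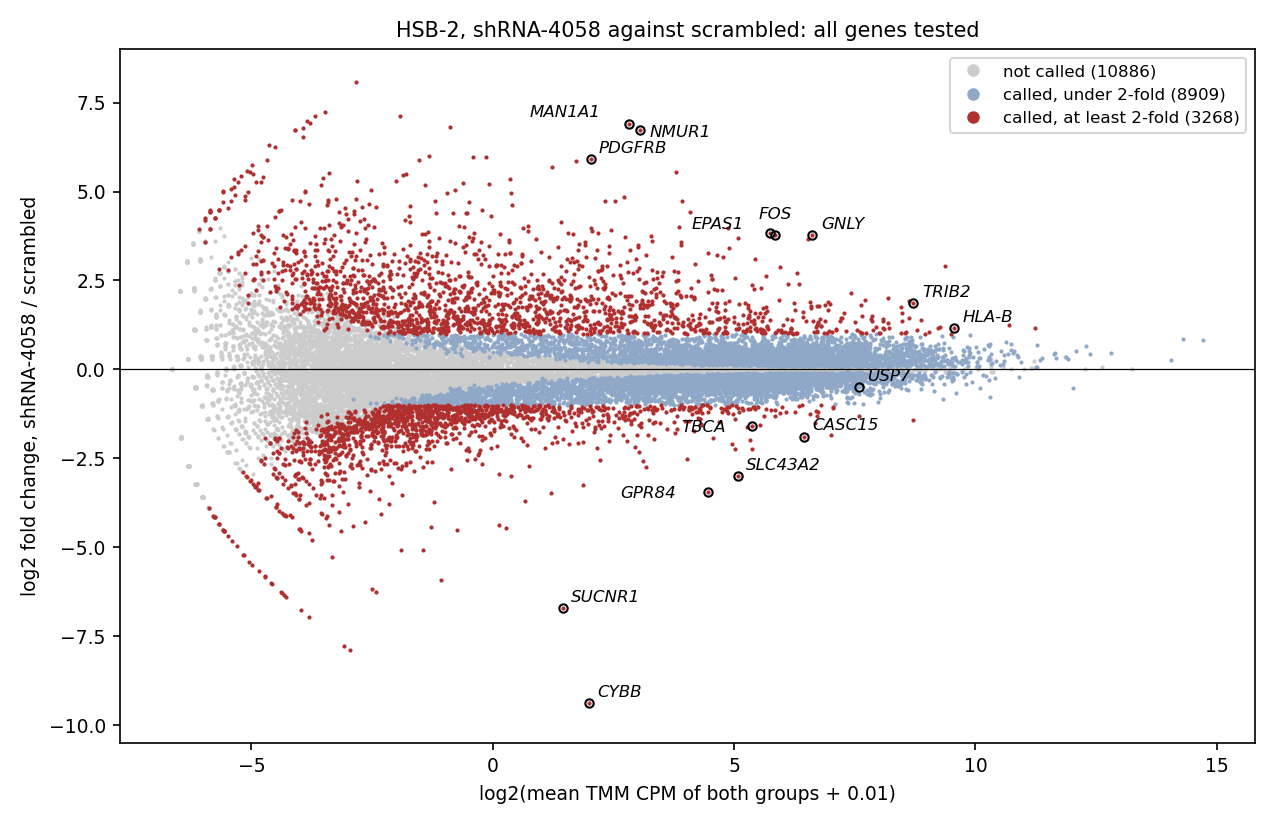
Log2 fold change of HSB-2 cells with shRNA-4058 over scrambled (vertical axis) against the mean level of both groups (horizontal axis, log2 of TMM CPM + 0.01) for the 23063 genes tested. Red points are the 3268 genes called with at least 2-fold change, blue points are called genes under 2-fold and grey points were not called; USP7 sits at -0.49, MAN1A1 at 6.91 and CYBB at -9.38.

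The 10 highest fold changes, among named genes with at least 1 CPM in the higher group, were genes close to silent in the scrambled cells. MAN1A1, a Golgi mannosidase that trims N-glycans, was at 14.0 and 14.0 CPM with shRNA-4058 and at 0.118 and 0.114 with the control, which was 6.91 as a log2 fold change (SE 0.123, adjusted p = 2.3e-22). NMUR1, a receptor of the neuropeptide neuromedin U, was at 16.9 and 15.7 against 0.198 and 0.108 CPM (6.72). PDGFRB, a receptor tyrosine kinase for platelet-derived growth factor, was at 7.96 and 8.06 against 0.112 and 0.154 CPM (5.91). The 10 genes were taken only from those in which the groups did not overlap. In these 3 the wild-type means of 2.63, 0.950 and 0.702 CPM lay between the groups.

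RGS6, which shortens G-protein signals, was at 27.8 and 26.3 against 0.557 and 0.603 CPM (5.54), and here wild-type cells were at 14.6 CPM, so the log2 difference from wild-type was only 0.89. DTX1, an E3 ligase and NOTCH1 target (5.36), the keratin gene KRT3 (5.69) and the ubiquitin ligase subunit gene ASB2 (5.97) rose from low levels. ASB2 had 8 counts in the 2 scrambled libraries together and 367 in the shRNA-4058 libraries, a ratio of 60.4 with a 95% interval of 30.3 to 141. HLA-DRB1, an MHC class II chain, had 10 counts against 503, a ratio of 66.2 (35.7 to 139). Intervals of such ratios cover counting error only. The remaining names were RPL21P35 (6.81), a ribosomal protein pseudogene, and UST-AS2 (5.86), which lies antisense to UST. Reads of HLA-DRB1 and RPL21P35 can be shared with near-identical copies, and reads of UST-AS2 with its partner, since the strand setting of the counting was not stated.

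The 10 lowest fold changes were led by CYBB, the catalytic subunit of the phagocyte NADPH oxidase. It had 2 counts and 1 count with shRNA-4058 against 1481 and 1394 with the control (7.93 and 7.93 CPM). The ratio of scrambled to shRNA-4058 was 728, with a 95% counting interval of 249 to 3533, and the wild-type mean was 0.951 CPM. CYBB was thus nearly undetected with the hairpin, low in wild-type cells and highest in the scrambled cells.

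SUCNR1, the succinate receptor, followed with 5.86 and 4.91 CPM in the scrambled cells and 14 counts in both shRNA-4058 libraries together, a ratio of 106 (63.2 to 195). GPR84, a receptor for medium-chain fatty acids, was at 3.75 and 3.63 against 39.4 and 40.9 CPM (log2 -3.44, SE 0.0901). SLC43A2, a transporter of large neutral amino acids, was at 7.38 and 7.52 against 60.3 and 59.6 CPM (-3.01, SE 0.0745). The groups did not overlap in these genes, and both shRNA-4058 libraries were below the wild-type means too, which were 7.34 CPM for GPR84 and 26.6 for SLC43A2. The other names were LRRC38 (-4.46), the phospholipase gene PLCE1 (-4.39), the metalloproteinase gene MMP16 (-3.71), the small GTPase gene RAB44 (-3.25), PLEK (-2.99), which encodes pleckstrin, and the divergent transcript AGA-DT (-2.94). For all 20 genes both shRNA-4058 libraries lay outside all 4 control libraries.

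Among genes with at least 50 CPM in the higher group, EPAS1, which encodes the hypoxia-inducible factor HIF-2 alpha, was at 99.4 and 102 CPM against 7.28 and 6.81 (log2 3.84, SE 0.0583, adjusted p = 3.5e-23). Wild-type cells held 82.8 CPM, so EPAS1 was low in the scrambled cells and the log2 difference from wild-type was 0.28. GNLY, which encodes the cytotoxic protein granulysin, was at 179 and 188 against 12.6 and 14.3 CPM (3.77), with 71.7 in wild-type. PLXNA4, a semaphorin receptor, was at 171 and 172 against 13.6 and 13.4 CPM (3.66), with 81.1 in wild-type. ENG, a co-receptor for TGF-beta ligands (3.98), the immediate early gene FOS (3.77) and the myosin gene MYO1E (3.69) completed the 6 highest. ENG overlaps an unnamed antisense gene.

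Of the 6 abundant genes with the lowest fold changes, 4 were below wild-type as well. CASC15, a long noncoding RNA, was at 36.9 and 37.3 against 141 and 135 CPM (-1.89, SE 0.0394), with 78.1 in wild-type. GNB4, a G-protein beta subunit, was at 14.5 and 14.4 against 69.1 and 66.6 CPM (-2.23), with 41.9 in wild-type. PHEX, a membrane endopeptidase (-2.25), and NRXN3, a neurexin (-2.09), had the same order. The 2 exceptions were CEBPE, a C/EBP factor of granulocytes, and the imprinted noncoding RNA H19. CEBPE was at 15.9 and 16.9 CPM with the hairpin, 62.7 and 66.3 with the control and 11.2 in wild-type, so its log2 difference was -1.98 against scrambled and 0.54 against wild-type. H19 was at -1.86 against scrambled and 0.49 against wild-type.

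**Figure D2:**
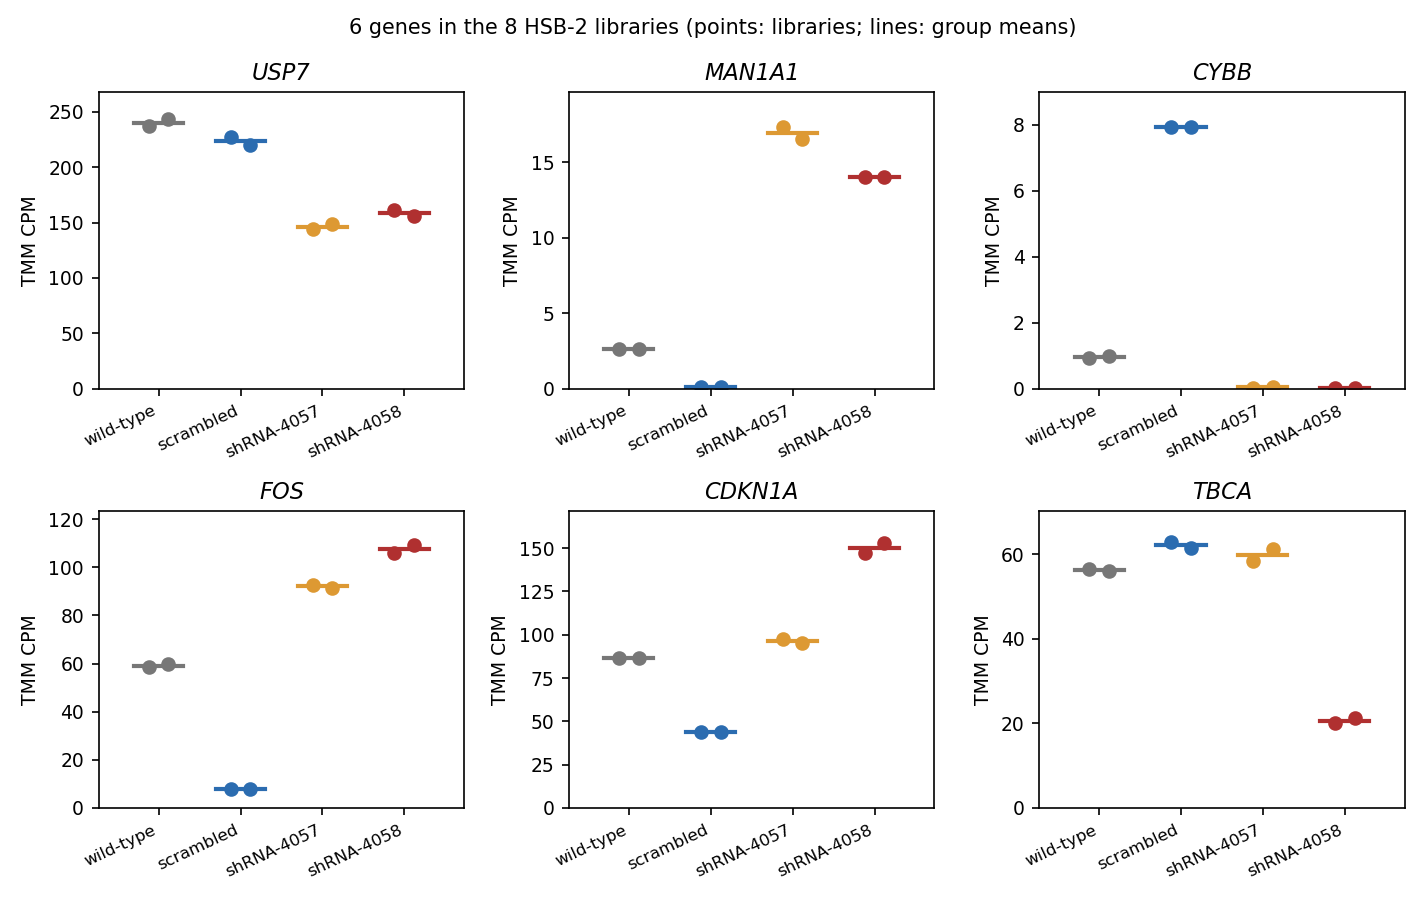
TMM CPM of USP7, MAN1A1, CYBB, FOS, CDKN1A and TBCA in the 8 HSB-2 libraries, with 1 point per library and a line at each group mean; each vertical axis starts at 0. The shRNA-4058 points sit apart from the scrambled points in all 6 panels, and TBCA is low in the shRNA-4058 libraries alone (20.1 and 21.2 CPM).

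Of 7 genes listed as E-protein targets, among them RAG1 and PTCRA, which the study names as such, 1 was called against scrambled. Over all genes 26.6% were called higher and 26.2% lower. CD69, an activation marker of lymphocytes, was at 141 and 131 CPM with shRNA-4058 and at 26.7 and 25.2 with the control (log2 2.39, SE 0.0614, adjusted p = 2.3e-19). Wild-type cells held 97.5 CPM, and the log2 difference from them was 0.48. CD1A, which presents lipid antigens on cortical thymocytes, was at 4.28 and 5.05 against 4.62 and 4.24 CPM, and the groups overlapped (0.04, SE 0.0777, adjusted p = 0.73). Its direction turned to -0.80 against the wild-type mean of 7.82 CPM. Of the 7 genes CD69 was thus called higher and CD1A lower than in wild-type. The study used another set of targets, defined from expression after knock-down of E2A, HEB and TAL1. By gene set enrichment it reported that set as lower with the USP7 hairpins in HSB-2 cells. It also reported that HSB-2 cells lack expression of RAG1 and PTCRA. That set was not tested here, and the 7 genes do not stand for it.

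The other 5 genes had few counts and were not called. RAG1, which with RAG2 recombines antigen receptor genes, had 24 and 3 counts with the hairpin and 25 and 7 with the control (log2 0.14, SE 0.418). RAG2 had 0 counts in both shRNA-4058 libraries and 4 and 0 in the controls, and PTCRA, the pre-T-cell receptor alpha chain, had 0 and 0 against 0 and 1. CD1B and CD1E had at most 12 counts in any of the 4 libraries. An observed count of 0 allows up to 3 counts, which is 0.0144 and 0.0444 CPM in the shRNA-4058 libraries.

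The transcripts of the E proteins differed little between the groups, and those of their inhibitors rose. TCF3 was at 262 and 278 against 250 and 261 CPM, groups that touch without overlapping, and was not called (log2 0.08, SE 0.0477), other size factors and DESeq2 put it at 0.14 with a call, and an offset for GC content and length put it at -0.22, also with a call (adjusted p = 5.9e-09), so its direction depended on the setting. TCF12 rose slightly, from 112 and 111 to 123 and 122 CPM (0.14, adjusted p = 0.00098), a difference that was not called against wild-type. ID2 was at 36.6 and 40.2 against 15.0 and 13.4 CPM (1.43), ID3 at 94.4 and 97.5 against 44.9 and 46.9 (1.06) and ID1 at 11.4 and 10.1 against 7.89 and 7.89 (0.46). The ID proteins bind E proteins and keep them from DNA, and the 3 listed members were also called higher than in wild-type cells (0.26, 0.50 and 0.34).

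TAL1 was at 130 and 134 against 99.8 and 104 CPM (0.38, SE 0.0333). Its relative LYL1 (1.43), the co-repressor gene CBFA2T3 (1.40), GATA3 (0.77) and LMO2 (0.54), which all belong to or cooperate with the TAL1 complex in leukemia cells, rose too. RUNX1, at 222 and 235 against 362 and 350 CPM (-0.64), and MYB, at 260 and 255 against 322 and 323 (-0.32), fell and were below wild-type as well. LDB1 (0.08) and EP300 (0.03) were not called, but LDB1 was called lower with the GC and length offset (-0.17, adjusted p = 1.5e-05) and EP300 was called lower against wild-type (-0.17, adjusted p = 0.00022). LMO1 and TCF4 had at most 6 counts per library. In all, 9 of the 16 genes of this group were called higher and 2 lower, with a median log2 fold change of 0.42 against -0.01 over all genes tested, of which 26.6% were called higher and 26.2% lower. Against wild-type the counts were 8 and 3, with a median of 0.11, beside 23.0% and 21.1% of all genes. The lower share was near that of all genes.

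The immediate early genes respond within minutes to receptor signals, and nearly all of them rose. Of 23 members 22 rose and 1 fell, with a median log2 fold change of 1.82, while 26.6% of all genes were called higher. EGR2 was at 26.8 and 27.7 against 1.75 and 1.67 CPM (3.99, SE 0.0861), FOS at 106 and 109 against 7.75 and 8.05 (3.77, SE 0.0654) and EGR3 at 26.4 and 28.4 against 2.38 and 2.44 (3.50). EGR1 averaged 1165 CPM against 155 (2.91), and JUN, NR4A1 and the phosphatase gene DUSP2 were at 1.88, 2.53 and 1.90. MYC, which averaged 325 against 421 CPM, was the member that fell (-0.37). Wild-type cells lay between the groups for these genes, at 15.3 CPM for EGR2, 59.1 for FOS and 663 for EGR1. Against wild-type 18 members were called higher and 2 lower, with a median of 0.57, beside 23.0% and 21.1% of all genes.

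**Figure D3:**
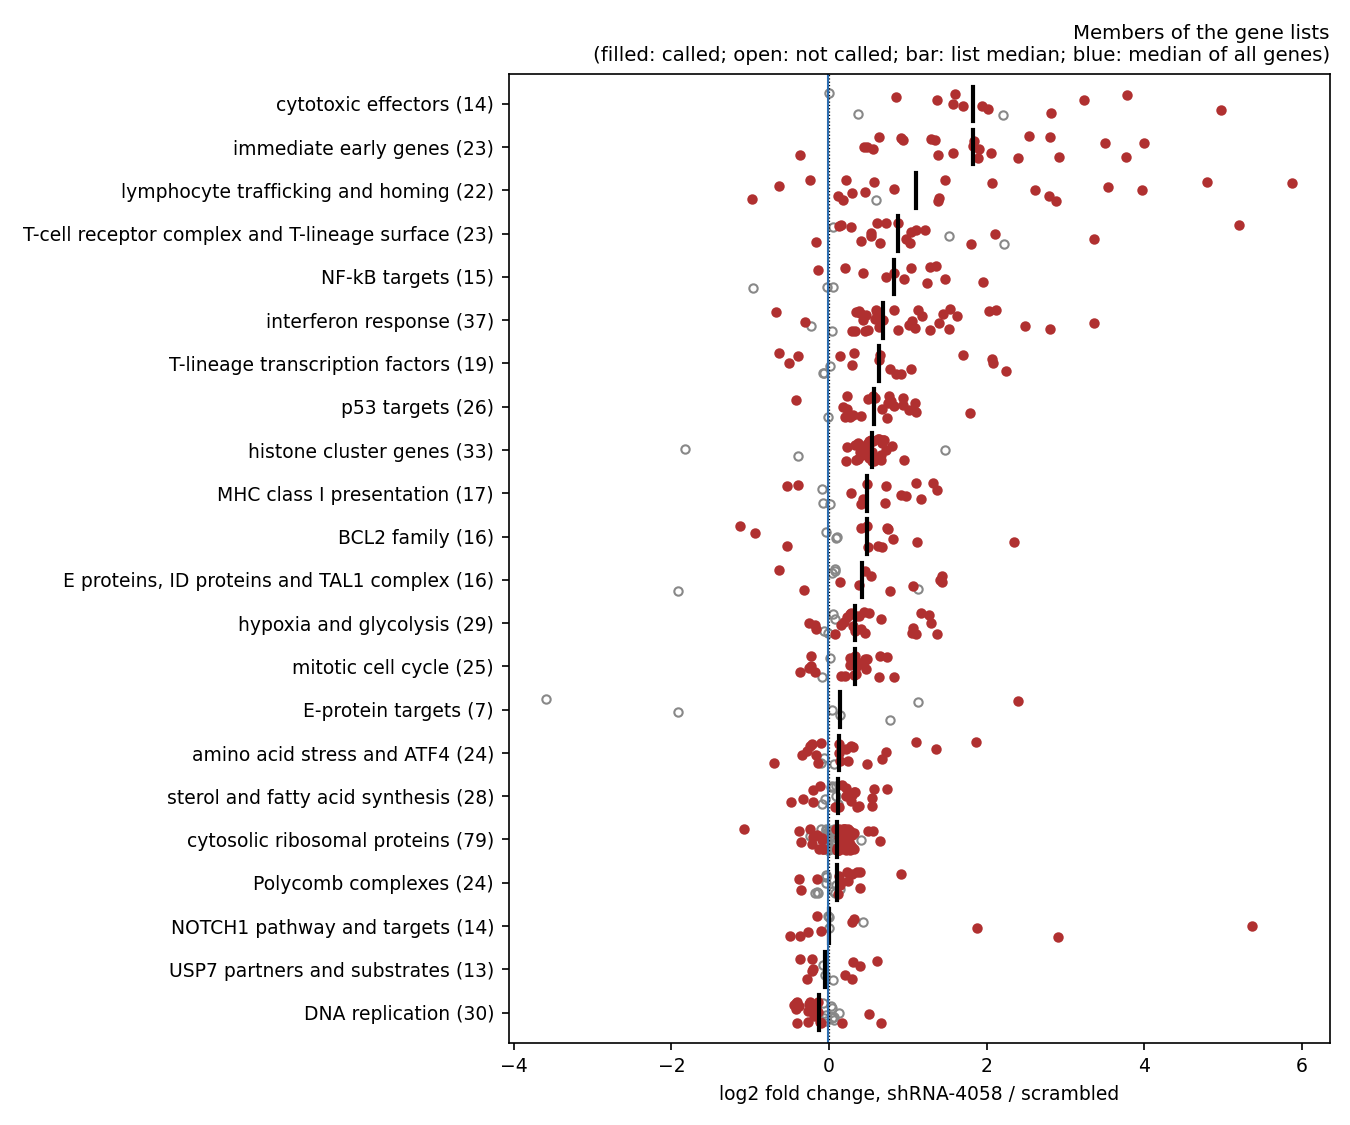
Log2 fold change of shRNA-4058 over scrambled (horizontal axis) for the tested members of 22 gene lists, with the number tested in brackets. Filled points were called, open points were not, black bars are list medians and the blue line is the median of all genes (-0.01); the immediate early genes and cytotoxic effectors have medians of 1.82 and the DNA replication genes -0.13.

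EGR1 is shown with a stretch of its promoter because it carries the only match among these promoters to the CArG box, the element bound by serum response factor. The RefSeq promoter table (build GRCh38.p14, from 250 bases before to 50 after each start) matched 17 of the 23 members. The CArG box by name was searched on both strands and was found in 1 of the 17 (5.88%) and in 1.29% of all 35116 promoters. The 60 bases of EGR1 at chr5:138465360-138465419, plus strand, run 5′ to 3′ with the matches in capitals.
EGR1: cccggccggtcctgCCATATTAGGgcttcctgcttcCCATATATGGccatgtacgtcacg

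The stretch holds 2 matches. The absence of a match in the other promoters says only that these letters are not in the window.

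Genes of the interferon response rose as a group, 33 of 37 higher and 2 lower, with a median of 0.68. Over all genes 26.6% were called higher and 26.2% lower than scrambled, and 23.0% and 21.1% than wild-type. IFIT3, a restriction factor for viral RNA, was at 8.21 and 8.01 against 0.712 and 0.865 CPM (3.36, SE 0.130), and its neighbour IFIT2 at 5.29 and 5.48 against 0.974 and 0.950 (2.48). Both overlap LIPA on the other strand. SAMHD1, which depletes deoxynucleotides, was at 8.19 and 8.45 against 1.27 and 1.10 CPM (2.81). The antiviral genes MX2 (2.02) and OAS1 (1.40) and the factors IRF7 (1.54), IRF9 (1.52) and IRF1 (1.09) rose too, EIF2AK2 (-0.67) and HERC5 (-0.31) fell, and MX1 was not called (0.04). Against wild-type cells 20 were called higher and 1 lower, with a median of 0.25, and SAMHD1 was no longer called (0.27, adjusted p = 0.10). MX2 (0.11), OAS1 (0.15) and IRF9 (-0.095) were not called against wild-type either, while IRF7 (0.40) and IRF1 (0.46) were called higher.

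Promoters of this list are shown because most of them carry the core of the interferon-stimulated response element, searched as GAAANNGAAA on both strands. The promoter table matched 28 of the 37 genes, and 18 of them held the letters (64.3%), as did 3.57% of all promoters. Among the 24 genes called higher that were matched, 14 held them. The list was made of interferon targets, so the share describes the list and not the hairpin. The stretches below, of 60 bases before the start on the gene's strand in GRCh38.p14, belong to the 4 members with the highest fold changes among those called, with at least 1 CPM in the higher group and a match before the start, and the capitals mark the matches, which read TTTCNNTTTC where the element faces the other way.
IFIT3 (chr10:89327833-89327892, plus strand): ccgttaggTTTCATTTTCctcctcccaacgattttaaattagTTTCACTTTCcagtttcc
ISG20 (chr15:88638922-88638981, plus strand): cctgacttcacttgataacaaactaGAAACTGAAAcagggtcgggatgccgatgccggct
IFI6 (chr1:27672251-27672310, minus strand): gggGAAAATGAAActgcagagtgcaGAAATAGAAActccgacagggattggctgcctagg
IFI44 (chr1:78649729-78649788, plus strand): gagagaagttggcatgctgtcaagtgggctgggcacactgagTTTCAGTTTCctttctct

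These 4 genes rose by 3.36, 1.45, 1.17 and 0.88 on the log2 scale, and IFIT3 and IFI6 hold 2 matches each. IFI44 averaged 3.92 CPM with the hairpin and 4.61 in wild-type cells, so it was not above wild-type.

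Genes of MHC class I presentation, which load and display peptides for T cells, followed, with 12 of 17 higher, 2 lower and a median of 0.48. HLA-F was at 39.7 and 42.6 against 15.6 and 16.1 CPM (1.37), the immunoproteasome gene PSMB10 at 23.4 and 25.2 against 9.78 and 9.69 (1.31) and HLA-B at 1027 and 1056 against 453 and 474 (1.17). The HLA genes resemble each other closely, so reads may be shared between them. CALR, a chaperone of the loading complex (-0.54), and ERAP2, a peptide trimming enzyme (-0.39), fell. Against wild-type 10 were higher and 4 lower, beside 23.0% and 21.1% of all genes, so the lower share was near that of all genes. Among NF-kB targets, 11 of 15 tested were higher and 1 lower than scrambled, with a median of 0.82, while 26.6% and 26.2% of all genes were. Against wild-type 8 were higher and 2 lower, with a median of 0.23, beside 23.0% and 21.1% of all genes. TNF was at 321 and 343 against 85.1 and 87.0 CPM (1.95), the lymphotoxin gene LTB at 161 and 178 against 64.2 and 67.9 (1.36) and the interleukin-2 receptor gene IL2RA at 5.06 and 5.05 against 1.56 and 2.08 (1.47).

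Targets of p53 rose almost throughout, 24 of 26 higher and 1 lower, with a median of 0.57, beside 26.6% and 26.2% of all genes. CDKN1A, the p21 inhibitor of cyclin-dependent kinases, was at 147 and 153 against 43.8 and 43.6 CPM (1.78, SE 0.0567, adjusted p = 9.8e-18), with 86.6 in wild-type. PLK3 was at 35.1 and 34.7 against 16.1 and 16.4 CPM (1.10), but wild-type cells were at 36.1 CPM. GADD45A, a DNA damage response gene, was at 27.6 and 28.8 against 12.7 and 13.7 CPM (1.09). ZMAT3 (1.02), DDB2 (0.75), BBC3 (0.73) and BAX (0.49) rose as well, and RRM2B (-0.42) fell. Against wild-type cells 18 members were called higher, and 21 of the 26 had both shRNA-4058 libraries above all 4 controls. Over all genes tested these shares were 23.0% and 26.3%.

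The transcripts of USP7's own partners and substrates went both ways, 5 of 13 higher and 5 lower, with a median of -0.06, beside 26.6% and 26.2% of all genes. Against wild-type 5 were higher and 4 lower, beside 23.0% and 21.1% of all genes. MDM4, a p53 inhibitor, fell and was at 130 and 128 against 171 and 162 (-0.37). MDM2 (0.20), which is also a p53 target, FOXO4 (0.60) and the Polycomb component PCGF1 (0.39) rose. Without replicate 2 of shRNA-4058 the lower members numbered 3. In the BCL2 family, 10 of 16 were higher and 3 lower than scrambled, with a median of 0.48. Against wild-type 7 were higher and 3 lower, with a median of 0.10, and the lower share was near the 21.1% of all genes. BCL2A1, a survival gene, was at 2.98 and 2.30 against 0.546 and 0.507 CPM (2.34) and BOK at 1.84 and 1.41 against 0.808 and 0.717 (1.12). BMF, which promotes apoptosis, was at 24.7 and 26.4 against 56.5 and 54.5 CPM (-1.13), but wild-type cells were at 25.1 CPM, so BMF was high in the scrambled cells.

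Genes of the T-cell receptor complex and T-lineage surface rose, 19 of 23 higher and 1 lower, with a median of 0.87. Of all genes 26.6% were called higher and 26.2% lower than scrambled, and 23.0% and 21.1% than wild-type. CD28, the co-stimulatory receptor, had 515 counts with shRNA-4058 and 18 with the control (1.92 and 1.72 against 0.0535 and 0.0455 CPM), a ratio of 37.7 with a counting interval of 23.6 to 64.1. CD8A was at 5.81 and 6.54 against 0.482 and 0.717 CPM (3.36). CD2, an adhesion molecule, was at 3.51 and 3.29 against 0.819 and 0.785 CPM (2.10), with 3.45 in wild-type. The abundant chains rose less, CD3D by 0.97 and CD3E by 0.61, and PTPRC, which encodes CD45, fell (-0.17). Against wild-type 14 were higher and 3 lower.

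Among T-lineage transcription factors, 13 of 19 were higher and 3 lower, with a median of 0.63, beside 26.6% and 26.2% of all genes. Against wild-type 11 were higher and 5 lower, with a median of 0.33, beside 23.0% and 21.1% of all genes. ZBTB7B, the factor ThPOK of the CD4 lineage, was at 3.25 and 3.11 against 0.690 and 0.655 CPM (2.25) and overlaps DCST2 on the other strand. TOX2 was at 3.48 and 3.92 against 0.712 and 1.02 CPM (2.08), and KLF2, a factor of quiescence and homing, at 11.5 and 11.3 against 2.59 and 2.87 (2.06). RUNX1, BACH2 (-0.51) and BCL11B (-0.39) fell.

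Genes of lymphocyte trafficking and homing had 18 of 22 higher and 3 lower, with a median of 1.10, beside 26.6% and 26.2% of all genes. Against wild-type they had 16 higher and 3 lower, with a median of 0.50, beside 23.0% and 21.1% of all genes. ITGB7, an integrin chain of gut homing, was at 108 and 109 against 14.6 and 15.0 CPM (2.87, SE 0.0481). RGS1, which dampens chemokine signals, was at 3.49 and 2.25 against 0.177 and 0.194 CPM (3.97), and GPR183, an oxysterol receptor, at 0.986 and 1.11 against 0.0696 and 0.108 (3.54). CCR7, which guides cells to lymph nodes, averaged 107 CPM against 41.0 (1.38). ITGA4 (-0.63) and CXCR4 (-0.24) fell. Of the 14 cytotoxic effector genes tested, 11 were higher and the other 3 not called, with a median of 1.82, and 7 were higher than in wild-type. KLRB1, a receptor of natural killer cells (3.23), rose from 0.166 and 0.131 CPM, and PRF1, the perforin gene, was at 1.49 and 1.39 against 0.348 and 0.370 (2.02). PRF1 was at 1.45 CPM in wild-type cells and overlaps PALD1 on the other strand. ITGB7 and GPR183 likewise overlap ZNF740 and UBAC2.

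In the NOTCH1 pathway 5 of 14 genes were higher and 5 lower than scrambled, with a median of 0.00, beside 26.6% and 26.2% of all genes. Against wild-type 5 were higher and 1 was lower, beside 23.0% and 21.1% of all genes. DTX1 (5.36), HES4, at 1.45 and 1.85 against 0.150 and 0.273 CPM (2.90), and TRIB2, at 658 and 663 against 181 and 180 (1.87, SE 0.0319), rose. NRARP, a feedback inhibitor (-0.50), MYC (-0.37) and IGF1R (-0.27) fell. NOTCH1 averaged 228 CPM against 186 (0.29). The count of lower members was 3 with DESeq2 and with other size factors, and also without either library of shRNA-4058 or without replicate 1 of scrambled.

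More mitotic genes rose than fell, and more DNA replication genes fell than rose. Of all genes 26.6% were called higher and 26.2% lower than scrambled, and 23.0% and 21.1% than wild-type. The share of mitotic genes called lower than scrambled (20%) was near that of all genes. So were the shares of mitotic genes lower and replication genes higher than wild-type. Of 25 mitotic genes 18 were higher and 5 lower than scrambled, with a median of 0.33, and 11 were higher and 5 lower than wild-type, with a median of 0.11. Those that rose against scrambled included KIF20A, a kinesin of cytokinesis, at 85.2 and 82.2 against 45.8 and 48.8 CPM (0.83), UBE2C at 108 and 114 against 64.5 and 68.8 (0.73) and the kinase gene PLK1 at 123 and 126 against 78.1 and 81.6 (0.65), which was not called against wild-type (0.11). KIF20A overlaps BRD8 and CDC23 on the other strand. BUB1B (-0.37) and CENPF (-0.18) fell, and without replicate 2 of shRNA-4058 the count of lower members was 2, without replicate 1 of scrambled 3. Of 30 DNA replication genes 3 were higher and 17 lower, with a median of -0.13. CCNE2, cyclin E2, was at 15.4 and 16.3 against 22.4 and 20.7 CPM (-0.45), GINS2 and CDC45, of the replicative helicase, were at -0.42 and -0.41, and POLA1 was at -0.41. RRM2, a subunit of ribonucleotide reductase, was higher, at 346 and 350 against 220 and 219 CPM (0.66), followed by the licensing factor gene CDT1 (0.50). Without replicate 2 of shRNA-4058 the replication counts were 7 higher and 11 lower. Against wild-type they were 6 and 19.

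Histone cluster genes rose against scrambled in 30 of 33 cases, with 3 not called and a median of 0.54, but not as a group against wild-type. Of all genes 26.6% were called higher than scrambled, and 23.0% higher and 21.1% lower than wild-type. H4C16 was at 113 and 118 against 57.3 and 62.4 CPM (0.95), with 75.9 in wild-type, and H2AC20 at 341 and 344 against 189 and 204 (0.80), with 313. H3C4 averaged 435 CPM with the hairpin, 325 with the control and 530 in wild-type. Against wild-type 8 were higher and 14 lower, with a median of -0.09, so the direction of this list depended on the control. Histone genes resemble each other, and most of their transcripts lack poly(A) tails, which ribosomal depletion retains.

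In metabolism, the genes of hypoxia and glycolysis were mostly above both controls. Of 29 members 22 were higher and 3 lower than scrambled, with a median of 0.33, and 28 were higher than wild-type, with a median of 0.47. These shares over all genes were 26.6%, 26.2% and 23.0%. ALDOC, a glycolytic aldolase, was at 667 and 688 against 255 and 268 CPM (1.37, SE 0.0369), with 291 in wild-type. GPI, which converts glucose 6-phosphate, averaged 3340 CPM against 1489 (1.17), with 1494 in wild-type, and the glucose transporter gene SLC2A3 709 against 340 (1.06). ADM, which encodes adrenomedullin, was at 3.10 and 3.35 against 1.25 and 1.36 CPM (1.29) and ANKRD37 at 59.8 and 59.8 against 25.1 and 24.5 (1.27). ANKRD37 overlaps UFSP2 on the other strand. PDK1 (-0.25), KDM3A (-0.17) and HK2 (-0.16) fell against scrambled, and without replicate 2 of shRNA-4058 the count of lower members was 1.

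Sterol and fatty acid synthesis differed little from scrambled in its median, with 15 of 28 higher, 5 lower and a median of 0.12. The same held against wild-type, with 14 higher, 9 lower and a median of 0.12. Of all genes 26.6% were called higher and 26.2% lower than scrambled, and 23.0% and 21.1% than wild-type. FADS2, a desaturase, was at 1946 and 2085 against 1348 and 1408 CPM (0.55) and overlaps FADS1. CYP51A1 was at 6.70 and 7.23 against 3.91 and 4.44 CPM (0.73) and overlaps AKAP9. Amino acid stress and ATF4 targets had 13 of 24 higher and 8 lower, with a median of 0.12, and 7 higher and 4 lower than wild-type. Without replicate 2 of shRNA-4058 the lower members numbered 2 in the sterol list and 3 in the ATF4 list. STC2, a secreted glycoprotein, was at 35.6 and 37.9 against 10.3 and 9.73 CPM (1.87), with 18.5 in wild-type. DDIT3, which encodes CHOP and overlaps MARS1 and MBD6 (1.35), and CHAC1 (1.10) rose against scrambled and were level with wild-type, at -0.02 and -0.03.

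Cytosolic ribosomal protein genes moved little against scrambled in their median (0.10), with 42 of 79 higher and 12 lower. Against wild-type 69 were higher and 4 lower, with a median of 0.25, beside 23.0% and 21.1% of all genes. Without replicate 2 of shRNA-4058, 6 were lower than scrambled. The members farthest from 0 were RPL36A, at 4.66 and 3.60 against 9.01 and 8.98 CPM (-1.08), which overlaps GLA, the p53 target RPS27L, at 49.3 and 54.0 against 32.5 and 33.3 (0.65), and RPL39L (0.55). RPS27L overlaps LACTB on the other strand. Polycomb genes, which write and read repressive histone marks, had 11 of 24 higher and 3 lower with a median of 0.10, beside 26.6% and 26.2% of all genes. Against wild-type they had 6 higher and 4 lower, near the shares over all genes (23.0% and 21.1%). Over the other settings against scrambled the count ran from 8 to 14 higher and from 2 to 8 lower, with 8 lower under the GC and length offset. CBX8 was at 39.9 and 41.0 against 30.8 and 31.1 (0.39), and EZH2, the methyltransferase, fell (-0.39).

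The cells with the second hairpin served as a further reference. Between shRNA-4058 and shRNA-4057, 5716 genes were called (24.8%), 3298 higher (14.3%) and 2418 lower (10.5%) with shRNA-4058, and 548 at least 2-fold (2.38%), 322 higher (1.4%) and 226 lower (0.98%). With an offset for GC content and length the split was 3141 higher and 3568 lower. Both comparisons with scrambled share the control libraries, so the hairpins are set against each other directly.

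TBCA, which helps to fold beta-tubulin, was low with shRNA-4058 and level in the other HSB-2 groups, at 20.1 and 21.2 CPM against 62.9 and 61.6 with the control, 58.3 and 61.2 with shRNA-4057 and 56.5 and 56.1 in wild-type. The log2 difference was -1.54 from shRNA-4057 (SE 0.0482, adjusted p = 6.9e-16), -1.60 from scrambled and -1.45 from wild-type. In Jurkat cells the same hairpin put TBCA at -1.41 against their own scrambled control. CACNA1D, an L-type calcium channel gene, was high with shRNA-4058, at 11.3 and 11.1 CPM against 0.546 and 0.285 with the control, 1.64 with shRNA-4057 and 0.717 in wild-type, and was 2.77 above shRNA-4057. It overlaps CHDH on the other strand.

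ASB2 (2.68), ZBTB7B (2.31), the cancer-testis gene PRAME (2.31) and HBA2 (2.27) were the other genes farthest above shRNA-4057. HBA2 shares reads with its near-identical copy HBA1, and its call against scrambled (0.84, adjusted p = 0.034) was lost in 5 alternative settings. PRAME lost its call against scrambled without replicate 1 of shRNA-4058. The genes farthest below shRNA-4057, besides TBCA, were ADTRP, at 0.207 and 0.178 CPM against 1.21 and 1.12 with scrambled and 0.919 with shRNA-4057 (-2.21), MPZL3 (-1.70), TDRD9 (-1.64) and GCSAM (-1.58). TDRD9 and GCSAM were above scrambled with shRNA-4058 and higher still with shRNA-4057, where GCSAM averaged 7.84 CPM against 2.73 with shRNA-4058, and TDRD9 lost its call against scrambled without replicate 1 of shRNA-4058.

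Several lists differed between the hairpins. All 28 tested genes of sterol and fatty acid synthesis were higher with shRNA-4058 than with shRNA-4057, with a median of 0.54, while 14.3% of all genes were called higher. FASN averaged 999 CPM with shRNA-4058, 545 with shRNA-4057, 796 with the control and 1109 in wild-type, and HMGCS1 628, 387, 726 and 752. MSMO1 (0.86) and DHCR7 (0.74) were further apart than the median. With shRNA-4057, 1 of these genes was called higher than scrambled and 23 lower, beside 21.9% and 21.7% of all genes. Over the other settings, chosen after the data were seen, 27 to 28 of them were called higher.

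Of the 29 hypoxia and glycolysis genes, 25 were higher and 1 lower than with shRNA-4057, with a median of 0.26, and of the 30 DNA replication genes 14 were lower and 16 not called, with a median of -0.10. Over the other settings the replication genes called lower numbered 7, without replicate 2 of shRNA-4058, to 23. Over all genes 14.3% were called higher and 10.5% lower. Among the 23 immediate early genes 16 were higher. Of the 19 T-lineage transcription factors 3 were higher, near the share over all genes, and 8 lower, with KLF2 at -0.72 and BACH2 at -0.73. Of the 33 histone genes 2 were higher and 10 lower.

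**Figure D4:**
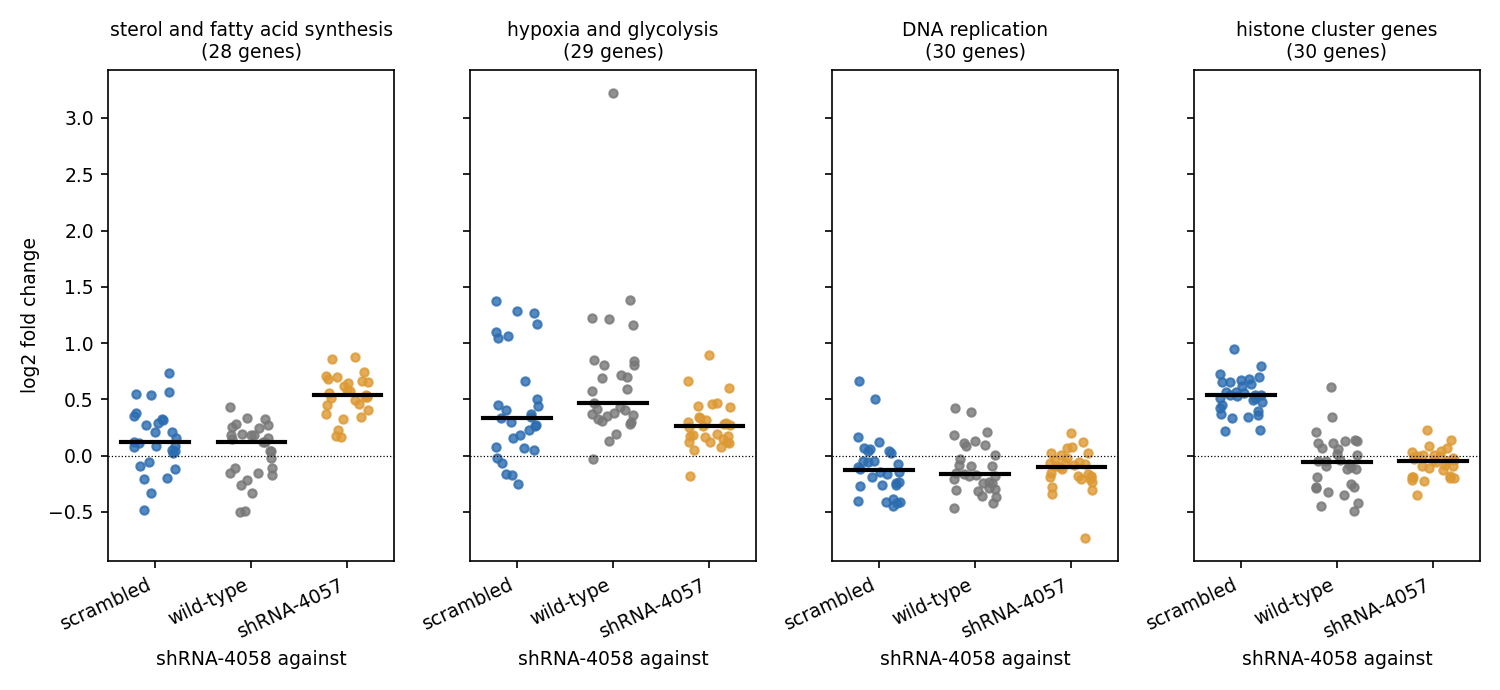
Log2 fold change of HSB-2 cells with shRNA-4058 (vertical axis) against each of scrambled, wild-type and shRNA-4057 cells, with 1 point per gene with at least 1 CPM in the shRNA-4058 or scrambled group and a black line at the median of the points. All 28 sterol and fatty acid genes were called higher than with shRNA-4057, 22, 28 and 25 of the 29 hypoxia and glycolysis genes were called higher than scrambled, wild-type and shRNA-4057, and the histone genes lie above 0 against scrambled and around 0 against the other references.

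Markers of other cell types were low throughout. The summed level of 8 T-lineage markers was 3786 to 3891 CPM with shRNA-4058, 2753 to 2824 with the control and 3177 to 3195 in wild-type. The sum of 8 myeloid markers was 0.548 to 0.563 CPM against 0.219 to 0.307, that of 7 B-lineage markers 18.2 to 18.5 against 9.79 to 9.86 and that of 8 erythroid and megakaryocyte markers 4.04 to 4.40 against 1.95 to 2.27. In wild-type cells these sums were 0.326 to 0.513, 18.3 to 19.5 and 2.28 to 2.85 CPM. The B-lineage sum with shRNA-4058 was thus level with wild-type and low in the scrambled cells. Fibroblast and epithelial markers summed to 8.16 to 8.59 against 4.55 to 4.81 CPM, with 7.49 to 7.61 in wild-type. HBB, PF4, MS4A1, COL1A2, COL3A1, DCN, EPCAM and KRT19 were at 0 in these 4 libraries. In bulk RNA a change in the share of cells that express a gene and a change in RNA per cell cannot be told apart, so fewer cells of a type and less RNA per cell are not separated here. The part of these markers in the results was not tested. Of the 8 T-lineage markers 7 were called higher and 1 lower.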

How the data were processed

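Total RNA was depleted of ribosomal RNA, made into stranded libraries and sequenced on a NovaSeq 6000 (per the labels). The authors aligned read pairs with BWA to GRCh37-lite and to transcript collections, and deposited raw counts per gene from HT-seq, without normalization or pooling. The submitters' processing notes name HTSeq 0.6.1p1 and also list STAR and CASAVA. The strand setting was not given in the sources used here. Such counts give no depth per transcript, and overlapping or near-identical genes may have been split in unknown ways.

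The table held Ensembl identifiers, of which 96.1% were given symbols from a reference table. Coordinates and overlaps came from GENCODE release 44 mapped to GRCh37. All 16 libraries were fitted as 8 groups in edgeR 4.0.16 (R 4.3.3) with filterByExpr, TMM scaling (factors 0.882 to 1.15), quasi-likelihood tests and p-values adjusted by Benjamini and Hochberg over 23063 genes. The biological coefficient of variation was 4.20%. The standard error was the absolute log2 fold change divided by the square root of F. Counts of replicates differed by more than sampling noise in every group (chi-square per gene 5.41 to 20.2). On simulated counts 100 of 100 genes changed by 1 log2 unit and 99 of 100 changed by 0.5 were recovered, and 9 of 22472 unchanged genes were called. The simulation gave all genes the same coefficient of variation and changed few genes, all above 1 CPM in the scrambled group, equally up and down. These rates therefore do not carry over to genes near 0 counts or to data in which 52.8% of genes were called.

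Beside USP7, genes were named by rank: the 10 highest and 10 lowest fold changes with at least 1 CPM in the higher group and with the groups apart, the next 6 of each kind with at least 50 CPM, the 3 called members of each list farthest from 0, all E-protein and TAL1 complex genes, and the 5 highest and 5 lowest between the hairpins. The members and lists were chosen with earlier results of these data known, and further list members named in the text were chosen after their values were seen. UHRF1, ACACA, CCL3, CCL4, CCL5 and PCGF2 were not matched by symbol and were not analysed here, and some genes that the rule names are not reported here. Promoter letters were searched in the RefSeq table for GRCh38.p14. Alternatives were other size factors, DESeq2 1.42.0, other filters (at least 1 count in all, or 10 in each of the 4 libraries), 8 or 4 libraries only, thinning, a replicate block, other controls, a GC content and length offset (22214 genes) and leaving out each library.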

Additional observations from a re-analysis of the deposited data

Results flagged for a closer look

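The same hairpin was also put into Jurkat cells, with scrambled libraries of their own. The difference between the lines was tested in the joint fit as the log2 effect in HSB-2 less the effect in Jurkat, and 12826 of 23063 genes were called (55.6%). The effect on USP7 was -0.49 in HSB-2 and -0.67 in Jurkat, a difference of 0.17 (SE 0.0486, adjusted p = 0.0039 by edgeR), which was 0.035 and not called (adjusted p = 0.49) once GC content and gene length were offset. That offset moved the median of this difference over all genes by -0.18.

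Of the 120 genes picked by the naming rule, a further 37 were called in both lines in opposite directions. These genes were picked by their HSB-2 values or from the lists, and the share over all genes was not computed. In HSB-2 34 of them rose with shRNA-4058 and fell in Jurkat, and SLC43A2, PHEX and RPL36A fell in HSB-2 and rose in Jurkat. The log2 differences between the lines were the following. For the strongest named genes of HSB-2 they were MAN1A1 7.38, HLA-DRB1 7.31, PDGFRB 6.83, ENG 6.28, GNLY 5.56, SLC43A2 -3.37 and PHEX -3.10. For T-cell, E-protein and TAL1 complex genes they were CD69 3.85, CD2 2.76, TOX2 2.55, GATA3 1.11, CBFA2T3 1.82, ID1 0.75 and TCF12 0.23. For immune and survival genes they were BCL2A1 4.58, IL2RA 3.35, PSMB10 1.91, HLA-B 1.76 and BOK 1.83. For genes of hypoxia, stress and lipid synthesis they were ALDOC 2.69, ADM 2.94, ANKRD37 1.57, GADD45A 1.72 and FADS2 1.11. For cell cycle and histone genes they were CDT1 1.35, UBE2C 0.94, H4C16 1.85, H2AC20 1.29 and H2BC21 1.06. For ribosomal protein genes they were RPL36A -1.79, RPS27L 0.92 and RPL39L 1.02. For NOTCH1 pathway and Polycomb genes they were HES4 3.32 and PCGF1 0.63. For the genes that differed between the hairpins they were PRAME 1.38, TDRD9 2.61 and GCSAM 4.29. CD69, for example, was at 2.39 in HSB-2 and -1.46 in Jurkat, and GNLY at 3.77 and -1.79. The Jurkat effects had unequal errors, with an SE of 0.0631 for CD69, 0.454 for GNLY, 0.607 for BCL2A1 and 0.819 for ENG. RPL36A, ANKRD37 and FADS2 overlap genes on the other strand. The scrambled cells of HSB-2 stood apart from wild-type cells, and the part of that in these differences was not tested.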

How the results depend on the processing

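Of the 210 recomputed counts of called genes, 201 stayed within 1.5 times the reported count. The counts of called list members were less stable, with 799 rated as unchanged and 107 as moved. Of those that moved, 26 did so with wild-type in place of scrambled and 16 without replicate 2 of shRNA-4058. Against scrambled, 809 genes were at least 2-fold lower with at least 10 counts required in each of the 4 libraries, a filter that removes genes near 0 in 1 group, and with wild-type in place of scrambled 852 genes were at least 2-fold higher and 832 lower. DESeq2 called 11728 genes (6843 higher), the thinned counts 11301 and the GC and length offset 12061 (5380 higher). Leaving out a library gave 10127 to 10908 called genes, 5258 to 6493 higher and 4107 to 5365 lower, 1587 to 1843 at least 2-fold higher and 1047 to 1350 lower. The replicate numbers do not pair the libraries (correlation of deviations 0.0664 between scrambled and shRNA-4058, -0.0974 to 0.0664 over all HSB-2 pairs). With a replicate block 12017 genes were called, 6046 higher and 5971 lower, and of the single genes named HBA2 lost its call (0.82, adjusted p = 0.051).

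Between the hairpins, 127 genes were at least 2-fold lower with at least 10 counts in each library. Leaving out a library gave 3713 to 4478 called, 2178 to 3353 higher, 1125 to 1885 lower, 258 to 320 at least 2-fold higher and 139 to 256 lower. The lowest of these values for lower genes (1125 and 139) came without replicate 2 of shRNA-4058, the shallowest library, and 3713 called, 2178 higher and 1535 lower without replicate 2 of shRNA-4057. USP7 was at 0.091 without replicate 1 of shRNA-4058 and at 0.094 without replicate 1 of shRNA-4057 (adjusted p = 0.15 both times, by edgeR, not called), and at 0.19 without replicate 2 of shRNA-4058. Its difference between the lines was 0.035 with the GC and length offset.

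Against wild-type the direction turned for CEBPE (0.54), H19 (0.49), BMF (0.017), TCF3 (-0.025), LDB1 (-0.049), EP300 (-0.17), CD1A (-0.80), CD2 (-0.050), DDIT3 (-0.024), CHAC1 (-0.033), PRF1 (-0.037) and PLK3 (-0.050). Of these CEBPE, H19, EP300 and CD1A were called. With the GC and length offset it turned for TCF3 (-0.22) and LDB1 (-0.17), both called, EP300 (-0.048) and CD1A (-0.028), with both controls averaged for EP300 (-0.067) and CD1A (-0.38, called), and without replicate 2 of scrambled for CD1A (-0.023), which ranged to 0.19 without replicate 1 of shRNA-4058. The causes were not tested. Most of the genes listed as E-protein targets had few counts, which leaves wide errors on their fold changes.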
